A study of Mus musculus with 6 samples.

Results

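The 41 genes described here encode the nuclear-made factors that copy, transcribe and translate mitochondrial DNA (mtDNA), without the mitochondrial ribosomal proteins. They were taken by symbol from a fixed list: 7 replication and packaging factors, 6 transcription factors, 16 mitochondrial aminoacyl-tRNA synthetases, 9 translation factors and the 3 nuclear regulators Nrf1, Gabpa and Esrra. All 41 were found among the 15176 genes of the deposited table, and all 41 passed the filter of a mean value of at least 10, which left 15006 genes. The RNA came from the inguinal white adipose depot (iWAT), which lies under the skin, of mice on a high-fat diet (HFD). The 4 Steap4f/f libraries (replicates 1, 2, 5 and 6) came from controls with a floxed Steap4 gene, and the 2 Steap4AKO libraries (replicates 2 and 3) from mice lacking Steap4 in adipocytes. Both genotypes were fed the HFD, and the comparison addresses what adipocyte Steap4, a metalloreductase of the plasma and endosomal membranes, does to mitochondria in fat. The sources used here give neither the Cre driver nor the floxed exons, nor the age and sex of the mice. The labels do not say that each library came from its own mouse, so the p-values rest on a spread between samples that may be technical.

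Steap4 itself, the targeted gene, did not separate the genotypes. Its normalized count was 17018, 9417, 8310.0 and 8851 in Steap4f/f, against 8313 and 8014 in Steap4AKO. The means were 10899 ± 4104 (SD, n = 4) and 8163 ± 211 (SD, n = 2), and limma gave a log2 difference of -0.35 ± 0.29 (SE, adjusted p = 0.544). Steap4AKO replicate 2 lay within the Steap4f/f range, replicate 3 lay below it, and Steap4f/f replicate 1 was the high library. A value per gene cannot show a deleted exon, and whole tissue also holds cells outside the deletion, so this does not check the labels.

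The libraries differed in more than genotype. Deposited values summed to between 16573561 and 20547925 per library. Skeletal muscle markers, all 12 of 12 in the table, summed to between 144291 and 777213 in Steap4f/f. In Steap4AKO they summed to 2208 in replicate 2 and 18077 in replicate 3. Myh7 was at 0 in Steap4AKO replicate 3 and also in Steap4f/f replicate 1. Of these markers, 6 passed the test as lower. Steap4AKO replicate 2 stood apart: 1068 genes were more than 2-fold above every other library, against 19 to 144 such genes in any other. In that library the 8 adipocyte markers summed to 304407, against 438266 to 502981 in Steap4f/f and 441954 in Steap4AKO replicate 3. Of the 8 markers, 6 lay below every control there, Cidec lay within the control range, and Lep went the other way. Controls held 8106 to 22141 of Lep, which reached 55202 in that library and 43434 in replicate 3. The 6 macrophage markers of Steap4AKO replicate 2 summed to 23965, against 5572 to 6429 in Steap4f/f and 6056 in replicate 3. Its 3 epithelial markers summed to 1651, against 2.37 to 20.1 in Steap4f/f and 7.96 in replicate 3, and its 3 mesothelial markers to 1339, against 28.2 to 327 and 17.8. Its 3 subcutaneous depot markers (Tbx15, Shox2 and En1) summed to 22.5, against 1424 to 1657 in Steap4f/f and 818 in replicate 3. In both Steap4AKO libraries 2 further sums lay below every control. The 5 thermogenic adipocyte markers summed to 148 and 558 against 660.3 to 3951. Of these, only Cox7a1 lay below every control in both. Ucp1, at 17.2 and 26.9, lay above the 4.01 of Steap4f/f replicate 2. Elovl3 was at 0 in Steap4AKO replicate 3 and also in Steap4f/f replicate 2. The 4 fibroblast progenitor markers summed to 19973 and 35133 against 40032 to 52804, with all but Dpt below every control in both. The sum of the 4 endothelial markers lay above, at 17158 and 19650.4 against 15154 to 16482. Of these, Cdh5 and Tek lay above every control in both, and Pecam1 and Kdr overlapped. Over all genes, 14.4% lay below every control in both and 14.1% above. With the muscle marker level as a covariate the median log2 difference of the 41 genes, -0.27 without it, was -0.35, and with the log2 of that level it was -0.072; muscle and genotype cannot be told apart well, with correlations of -0.71 and -0.92. The part of the other markers in the results below was not tested, and results are given for each Steap4AKO library. In bulk tissue, fewer cells of a type and less RNA per cell cannot be told apart.

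Mitochondria keep a small circular genome whose messenger RNAs encode subunits of the respiratory chain and ATP synthase, together with the ribosomal and transfer RNAs needed to translate them. Every protein that copies, reads and translates this genome is encoded in the nucleus, made in the cytosol and imported. In adipose tissue these factors are part of the mitochondrial expansion that accompanies adipocyte differentiation and browning, and the nuclear regulators NRF1, GABPA and ESRRA, with coactivators of the Ppargc1a family, are known to act on many of their genes.

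Most of the 41 genes had a lower mean in Steap4AKO, by a modest amount, and no single gene passed the test. Differences are Steap4AKO minus Steap4f/f, of log2(value + 1). Their median was -0.27, beside 0.02 over all 15006 genes. The difference was negative for 36 genes (87.8%, beside 47.8% of all genes) and positive for 5. This split became 26 and 15 when each library was scaled to the same total, a scaling that moved the median of all genes to 0.21. Relative to that median the 41 genes stood at -0.29 under the deposited scaling and under the same total. This gap is no check on scaling, because scaling a library moves the log2 values of all its genes by nearly the same amount. At an adjusted p under 0.05, limma called 0 of the 41 genes, where it called 71 genes in all (0.473%). At an unadjusted p under 0.05, 9 of the 41 were lower, beside 9.66% of all genes. At that level 0 of the 41 were higher, beside 1268 of all 15006 genes. In 15 of the 41 (36.6%) both Steap4AKO libraries lay below every Steap4f/f library, beside 14.4% of all genes. Under the same total this held for 7 of the 41 (17.1%), beside 7.7% of all genes. None of the 41 lay above every Steap4f/f library in both Steap4AKO libraries, beside 14.1% of all genes. Under the same total 2 did, and a share of all genes is not given for that count.

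**Figure D1:**
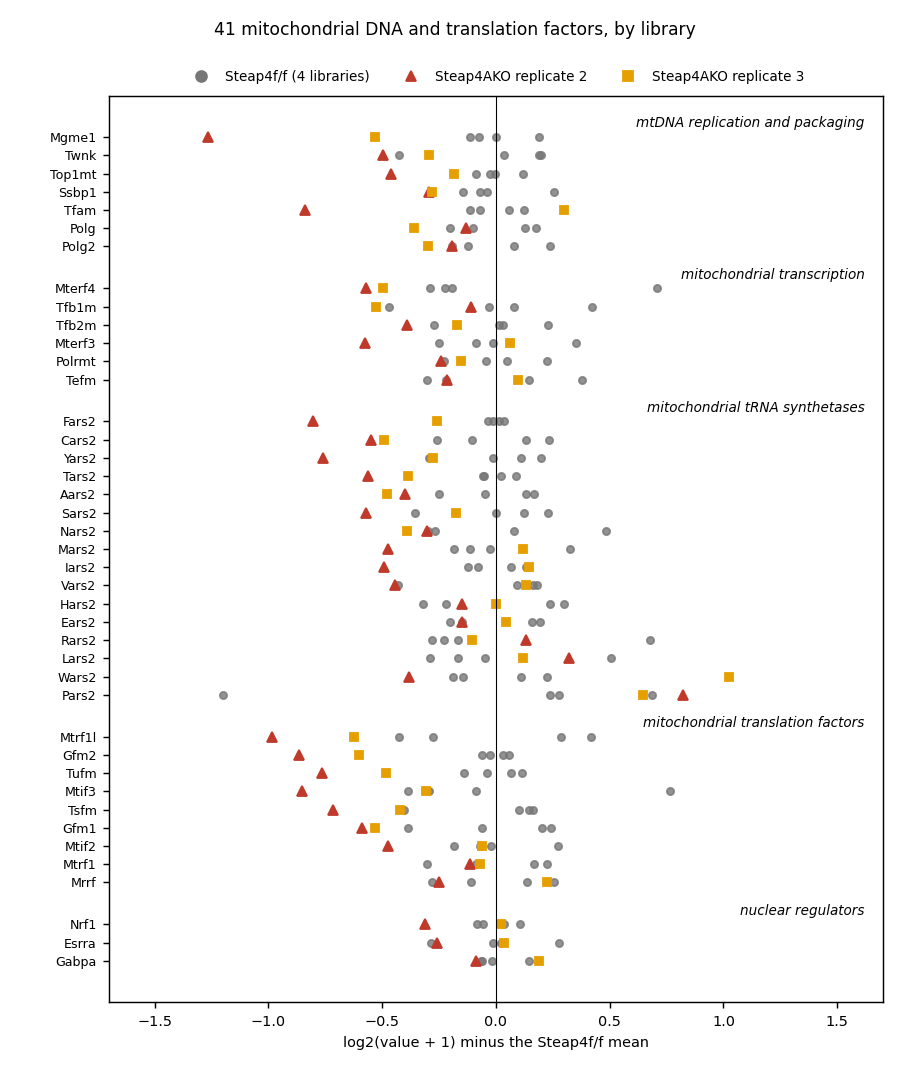
Each of the 41 genes is a line, grouped by role, and each point is 1 library, plotted as its log2(value + 1) minus the mean of the 4 Steap4f/f libraries. Steap4AKO replicate 2 (triangles) lay mostly to the left of the grey Steap4f/f points, with a median of -0.44, and replicate 3 (squares) lay closer to them, with a median of -0.17.

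The 2 Steap4AKO libraries differed in how far they moved. The median over the 41 genes was -0.44 in replicate 2 and -0.17 in replicate 3, while the 4 Steap4f/f libraries had medians of 0.07, -0.01, -0.04 and -0.02 by the same measure. Replicate 2 lay below every Steap4f/f library for 30 genes and above for 1, beside 4297 and 4724 of all 15006 genes. Replicate 3 lay below for 17 and above for 4, beside 3518 and 3666 of all genes. In 33 of the 41 genes (80.5%) replicate 2 was the lower of the pair. Both libraries lay below the Steap4f/f mean for 25 genes and above it for 2 (Lars2 and Pars2). Replicate 2 alone lay below it for 13 genes, among them Tfam, all 3 nuclear regulators and 6 synthetases, and replicate 3 alone for 1, Rars2. Among the Steap4f/f libraries, replicate 1 had the least muscle marker RNA, and the 41 genes were at a median of 0.09 above the other Steap4f/f libraries there. By role this median ran from -0.30 for the transcription factors to 0.23 for the replication and packaging factors. The muscle marker sum of that 1 library, 144291, was still above the 2208 and 18077 of Steap4AKO, and the part of muscle was not tested.

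**Figure D2:**
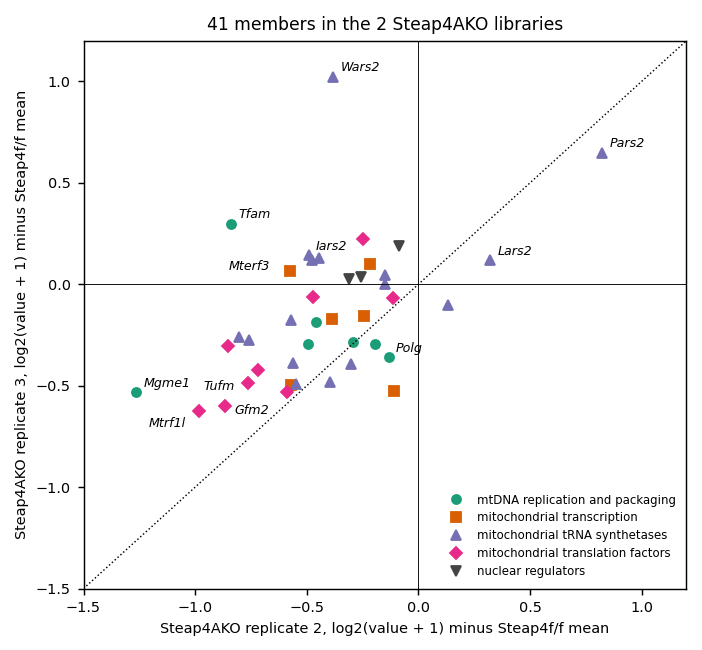
Each point is 1 of the 41 genes, with its log2(value + 1) minus the Steap4f/f mean in Steap4AKO replicate 2 on the x axis and in replicate 3 on the y axis; symbols give the role and the dotted line marks equal values. Most points lie above the line, and Tfam and Wars2 lie to the left of 0 in replicate 2 and above 0 in replicate 3.

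The translation factors were the role with the lowest median. All 9 had a negative log2 difference (7 of 9 under the same total) and 5 reached an unadjusted p under 0.05, beside 9.66% of all genes. In 5 of the 9 both Steap4AKO libraries lay below every Steap4f/f library, beside 14.4% of all genes. Under the same total this held for 3 of the 9, beside 7.7%. Their median was -0.57 (-0.39 under the same total), with -0.72 in Steap4AKO replicate 2 and -0.42 in replicate 3. Tufm is the elongation factor that brings charged tRNAs to the mitochondrial ribosome, Tsfm returns it to its GTP form, Gfm1 moves the ribosome along the message, and Gfm2 splits the ribosome after termination.

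Gfm2 (chr13:97137937-97181195, plus strand) had the smallest p of the 41 genes. Its normalized count was 1033, 975, 952 and 1016 in Steap4f/f, against 545 and 654 in Steap4AKO. The groups did not overlap, the 4 controls lay close together, and the mean was 1.66-fold lower in Steap4AKO, at 599.6 ± 76.9 (SD, n = 2) against 994 ± 37.4 (SD, n = 4). The log2 difference was -0.73 ± 0.14 (SE, limma adjusted p = 0.0658). Tufm (chr7:126487361-126490731, plus strand) had 2042, 2108, 1897 and 1768 in Steap4f/f, against 1148 and 1393 in Steap4AKO. Both Steap4AKO libraries lay below all controls, and the means of 1271 ± 173 and 1954 ± 152 (SD, n = 2 and 4) stood 1.54-fold apart. The log2 difference was -0.62 ± 0.14 (SE, limma adjusted p = 0.0969). Of the 50-base runs of Tufm exons, 54.5% also occur in the pseudogene Gm9755 on chromosome 8, whose value of 3.98 to 21.2 was at most 1.03% of the sum of both genes. The log2 difference of that sum was -0.63. Without Steap4AKO replicate 3 the log2 differences of Gfm2 and Tufm were -0.86 and -0.76, from replicate 2 alone, the library that stood apart. With an adjusted p under 0.1 as threshold, Gfm2 and Tufm passed in the fit of all 6 libraries, where 410 genes in all passed.

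Gfm1 (chr3:67430096-67476529, plus strand) had 1329, 1058, 1593 and 1639 in Steap4f/f, against 920.0 and 958 in Steap4AKO, without overlap. Its means were 1405 ± 268 and 939 ± 26.6 (SD, n = 4 and 2), 1.5-fold apart, with a log2 difference of -0.56 ± 0.20 (SE, limma adjusted p = 0.204). The controls spread more widely here than for Gfm2, with replicate 2 the closest to the Steap4AKO values. Tsfm (chr10:127011572-127030840, minus strand) had 473, 453, 467 and 319 in Steap4f/f, against 257 and 315 in Steap4AKO. Steap4f/f replicate 6 was the low control and lay just above Steap4AKO replicate 3, and the log2 difference was -0.57 ± 0.22 (SE, limma adjusted p = 0.239). Mtrf1l (chr10:5811887-5823910, minus strand), a release factor that ends translation at stop codons, had 222, 137, 203 and 123 in Steap4f/f, against 83.5 and 107 in Steap4AKO. The controls formed a higher and a lower pair, both above Steap4AKO, and the log2 difference was -0.80 ± 0.32 (SE, limma adjusted p = 0.251).

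The other 4 translation factors overlapped between groups. Their log2 differences were -0.58 for the initiation factor Mtif3, -0.27 for the initiation factor Mtif2, -0.09 for Mtrf1, a release factor relative, and -0.01 for the recycling factor Mrrf, which works with Gfm2. Mrrf was 506 in Steap4AKO replicate 2 and 703 in replicate 3, within the Steap4f/f range of 494 to 718, so that the partners of recycling did not show the same size of difference; the difference between these genes was not tested. Of the Mtif3 exon length, 29.4% lies opposite exons of Gtf3a, and the sources used here do not say whether the counts used strand.

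**Figure D3:**
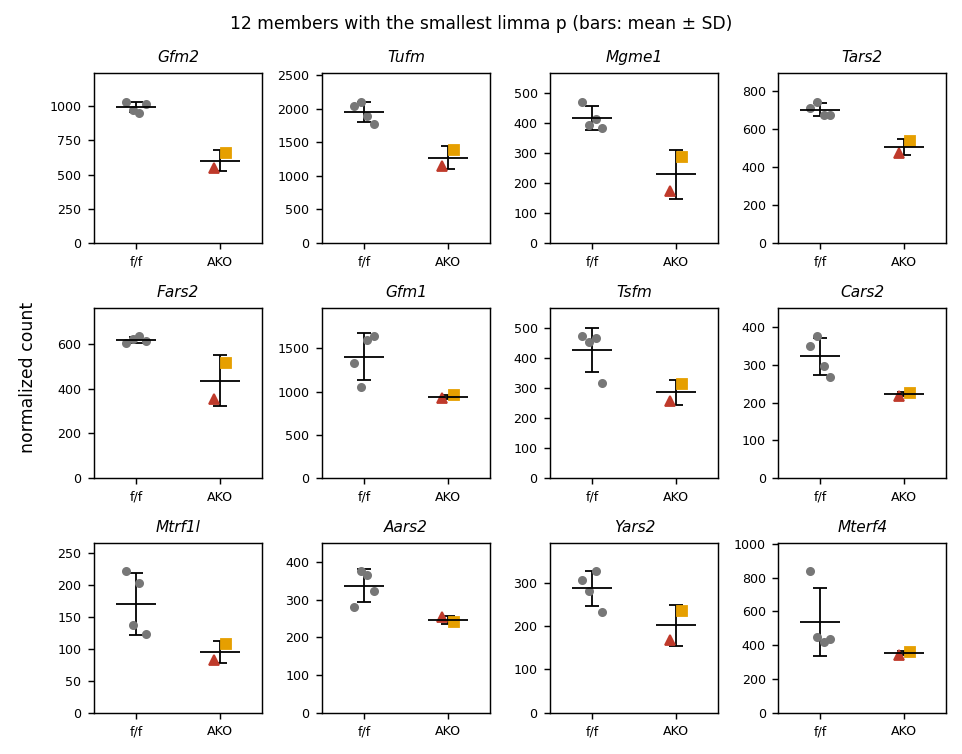
Normalized counts in every library for the 12 of the 41 genes with the smallest limma p, with Steap4f/f (f/f, grey circles, n = 4) and Steap4AKO (AKO, triangle replicate 2, square replicate 3, n = 2); bars are the mean and SD and each y axis starts at 0. The groups do not overlap for 11 of the 12 genes shown, and Yars2 is the exception, with 234 in Steap4AKO replicate 3 and 232 in Steap4f/f replicate 6. Genes picked for a small p tend to separate, so this count is no result about the 41 genes. Of the 41, 36.6% were lower without overlap, beside 14.4% of all genes.

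The promoters of Tufm, Gfm1 and Gfm2 are shown because these 3 translation factors had the highest normalized counts of the 9, and none of their values overlapped between groups. They are RefSeq promoters on GRCm38.p6, from 250 bases before to 50 after the RefSeq start, on the plus strand, 5′ to 3′. Capitals mark the ETS core CCGGAAG, the letters bound by factors such as GABPA, which begins 2 bases before the start of Tufm (chr7:126487105-126487404) and 1 base before that of Gfm1 (chr3:67429865-67430164). Gfm2 (chr13:97137687-97137986) holds none of the 4 cores searched.
Tufm: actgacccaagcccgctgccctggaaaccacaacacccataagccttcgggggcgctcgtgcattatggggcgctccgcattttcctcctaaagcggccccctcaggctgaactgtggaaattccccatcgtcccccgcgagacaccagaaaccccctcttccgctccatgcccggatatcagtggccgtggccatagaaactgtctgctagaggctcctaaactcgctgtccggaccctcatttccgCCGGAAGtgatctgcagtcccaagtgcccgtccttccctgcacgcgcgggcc
Gfm1: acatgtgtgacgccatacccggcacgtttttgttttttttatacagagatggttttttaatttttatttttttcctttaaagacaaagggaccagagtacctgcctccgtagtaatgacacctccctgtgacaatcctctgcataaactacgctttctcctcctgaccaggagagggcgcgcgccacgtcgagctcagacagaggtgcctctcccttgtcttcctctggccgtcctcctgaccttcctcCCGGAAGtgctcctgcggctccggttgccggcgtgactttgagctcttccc
Gfm2: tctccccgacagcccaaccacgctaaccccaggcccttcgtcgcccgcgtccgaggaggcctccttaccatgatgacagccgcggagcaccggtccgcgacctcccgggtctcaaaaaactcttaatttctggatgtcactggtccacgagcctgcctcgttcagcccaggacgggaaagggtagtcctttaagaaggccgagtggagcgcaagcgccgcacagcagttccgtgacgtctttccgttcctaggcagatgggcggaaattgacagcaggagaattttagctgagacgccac

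The 7 replication and packaging factors all had a negative log2 difference, under every scaling tried, with a median of -0.29. Mgme1 differed most, and 4 of the 7 were lower without overlap (Mgme1, Ssbp1, Top1mt and Polg2), beside 14.4% of all genes. Under the same total this was 1 of 7, beside 7.7% of all genes. The medians of the 7 were -0.46 in Steap4AKO replicate 2 and -0.30 in replicate 3. At an unadjusted p under 0.05, 9.66% of all genes were lower, and so was 1 of the 7. These genes act at the mtDNA replication fork: Twnk unwinds the DNA, Polg and its accessory subunit Polg2 copy it, Ssbp1 coats single strands, Top1mt relieves supercoils, and Mgme1 trims the ends.

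Mgme1 (chr2:144270663-144281227, plus strand), the exonuclease, had a normalized count of 470.4, 392, 413 and 381 in Steap4f/f, against 171 and 285 in Steap4AKO. Both Steap4AKO libraries lay below all controls, with replicate 2 far below. The means were 414 ± 39.7 (SD, n = 4) and 228 ± 80.6 (SD, n = 2), 1.81-fold lower, and the log2 difference of -0.90 ± 0.24 (SE, limma adjusted p = 0.131) was the most negative of the 41 genes. Without Steap4AKO replicate 3 the difference was -1.26 (adjusted p = 0.0385), from replicate 2 alone, the library that stood apart. The promoter of Mgme1 (RefSeq on GRCm38.p6, chr2:144270654-144270953, plus strand) is shown for this gene with the most negative difference. Nearly all of it lies downstream of the earliest GENCODE start, and capitals mark the core AAGATGGC of the factor YY1, which begins 66 bases before the RefSeq start.
Mgme1: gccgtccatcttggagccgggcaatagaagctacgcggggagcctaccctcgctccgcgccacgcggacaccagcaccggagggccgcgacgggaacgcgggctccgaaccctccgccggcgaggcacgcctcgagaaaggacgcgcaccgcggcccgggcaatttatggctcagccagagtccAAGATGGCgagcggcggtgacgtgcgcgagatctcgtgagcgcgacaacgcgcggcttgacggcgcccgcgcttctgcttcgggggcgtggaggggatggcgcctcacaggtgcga

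Tfam, which coats mtDNA into nucleoids and also helps start its transcription, did not move the same way in the 2 Steap4AKO libraries. Its normalized count was 524, 548, 479.6 and 464 in Steap4f/f, 281 in Steap4AKO replicate 2 and 618 in replicate 3. The first Steap4AKO value lay below all controls and the second above all of them, so that the mean log2 difference of -0.27 ± 0.29 (SE, limma adjusted p = 0.652) describes neither, and without replicate 2 it was 0.30. Polg (chr7:79446231-79466362, minus strand), the catalytic subunit of the polymerase, had 1730.0, 1676, 1428 and 1335 in Steap4f/f, against 1397 and 1194 in Steap4AKO. The groups overlapped, and the log2 difference was -0.25 ± 0.16 (SE, limma adjusted p = 0.442). Twnk had 334, 336, 218 and 300.4 in Steap4f/f, against 207 and 238 in Steap4AKO, an overlap through Steap4f/f replicate 5 alone, with a log2 difference of -0.40 ± 0.24 (SE, limma adjusted p = 0.412). Ssbp1, Top1mt and Polg2 had log2 differences of -0.29, -0.32 and -0.25.

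The 6 transcription factors had log2 differences from -0.53 for Mterf4 to -0.06 for Tefm. All 6 were negative, with Tefm the exception under the same total, at a median of -0.27. An unadjusted p under 0.05 was reached by 0 of the 6, beside 9.66% of all genes that were lower at that level. In 6 genes a count of 0 says little beside that share. Polrmt, the polymerase that transcribes mtDNA and primes its replication, had a normalized count of 613, 840.3, 696 and 742 in Steap4f/f, against 607 and 645 in Steap4AKO. The groups overlapped through Steap4f/f replicate 1, and the log2 difference was -0.20 ± 0.17 (SE, limma adjusted p = 0.552). Its partner Tfb2m, which opens the promoter, was at -0.28, the rRNA methylase Tfb1m at -0.32 and the elongation factor Tefm at -0.06. Of the 50-base runs of Tfb2m, 31.9% also occur in Gm1818 on chromosome 12, at most 5.54% of the sum of both genes. Mterf3, which represses transcription from mtDNA, was at -0.26, with Steap4AKO replicate 2 below all controls and replicate 3 among them.

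Mterf4, which acts with the rRNA methylase Nsun4 on the mitochondrial ribosome, was the 1 transcription factor without overlap (16.7%, beside 14.4% of all genes). It had 838, 448, 419 and 438 in Steap4f/f, against 345 and 363 in Steap4AKO, with means of 536 ± 202 and 354 ± 12.8 (SD, n = 4 and 2). The log2 difference of -0.53 ± 0.29 (SE, limma adjusted p = 0.378) was -0.30 without Steap4f/f replicate 1, the high control. Of the Mterf4 exon length, 35.2% lies opposite exons of Sned1, which was also highest in that library, at 1045 against 478 to 538 in the other controls. The Polrmt promoter (RefSeq on GRCm38.p6, chr10:79746532-79746831, minus strand) is shown as that of the core polymerase. Capitals mark the ETS core on the opposite strand (CTTCCGG as printed), which begins 43 bases before the start.
Polrmt: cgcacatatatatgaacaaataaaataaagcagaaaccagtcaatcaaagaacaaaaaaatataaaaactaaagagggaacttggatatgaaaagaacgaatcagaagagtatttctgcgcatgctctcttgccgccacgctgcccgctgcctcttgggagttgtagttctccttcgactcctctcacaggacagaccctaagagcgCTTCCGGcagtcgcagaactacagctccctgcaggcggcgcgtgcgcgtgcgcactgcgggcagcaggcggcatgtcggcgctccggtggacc

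The 16 mitochondrial aminoacyl-tRNA synthetases, which load each mitochondrial tRNA with its amino acid, were mixed. The difference was negative for 12 and positive for 4, with a median of -0.18, and under the same total it was negative for 7, with a median of 0.01. In Steap4AKO replicate 2 their median was -0.42, and in replicate 3 it was -0.05. An unadjusted p under 0.05 was reached by 3 (Tars2, Fars2 and Cars2), all lower, beside 9.66% of all genes. Without overlap were 5 (31.2%), these and Aars2 and Nars2, beside 14.4% of all genes. Under the same total, 2 of the 16 were without overlap, beside 7.7%.

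Tars2, for threonine (chr3:95739976-95760206, minus strand), had a normalized count of 713, 745, 674 and 675 in Steap4f/f, against 474 and 536 in Steap4AKO. The controls lay within a narrow band well above Steap4AKO, and the log2 difference was -0.48 ± 0.14 (SE, limma adjusted p = 0.168). Fars2, for phenylalanine (chr13:36117412-36726280, plus strand), had 603, 624, 634 and 613 in Steap4f/f, the tightest controls of the 41 genes relative to their mean, and 354 and 517 in Steap4AKO. The log2 difference was -0.53 ± 0.18 (SE, limma adjusted p = 0.201), and without Steap4AKO replicate 3 it was -0.80, from replicate 2 alone. Cars2, for cysteine (chr8:11513977-11550783, minus strand), had 350.4, 376, 296 and 267 in Steap4f/f, against 218 and 227 in Steap4AKO. The 2 Steap4AKO libraries lay close together below all controls, with a log2 difference of -0.52 ± 0.21 (SE, limma adjusted p = 0.247).

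Aars2, for alanine, had 281, 375, 367 and 324 in Steap4f/f, against 254 and 239 in Steap4AKO, with a log2 difference of -0.44 ± 0.20 (SE, limma adjusted p = 0.288). Yars2, for tyrosine, had 307, 282, 326 and 232 in Steap4f/f, against 168 and 234 in Steap4AKO, with a log2 difference of -0.52 ± 0.24 (SE, limma adjusted p = 0.296). Aars2 was without overlap, and Yars2 overlapped by a narrow margin in Steap4AKO replicate 3. Wars2, for tryptophan, had 155, 143, 120.0 and 116 in Steap4f/f, 102 in Steap4AKO replicate 2 and 271 in replicate 3. The 2 Steap4AKO libraries lay on opposite sides of the controls, so that the log2 difference of 0.32 ± 0.39 (SE, limma adjusted p = 0.693) was -0.38 without replicate 3.

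Pars2 and Lars2 were the synthetases above the Steap4f/f mean in both Steap4AKO libraries. Pars2, for proline, had 141, 103, 106 and 37.5 in Steap4f/f, against 156 and 138 in Steap4AKO, with a log2 difference of 0.73 ± 0.51 (SE, limma adjusted p = 0.476). Steap4f/f replicate 6 was low, and replicate 1 lay between the Steap4AKO values. Lars2, for leucine, had 3006, 3551, 3269 and 5222 in Steap4f/f, against 4595 and 3991 in Steap4AKO, with a log2 difference of 0.22 ± 0.23 (SE, limma adjusted p = 0.63). The highest value was a control, Steap4f/f replicate 6. The remaining synthetases (Ears2, Hars2, Iars2, Mars2, Nars2, Rars2, Sars2 and Vars2) had log2 differences from -0.37 for Sars2 to 0.02 for Rars2.

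Cytosolic synthetases serve as a comparison, because they do the same reaction outside mitochondria. For 17 pairs of a mitochondrial and a cytosolic enzyme for the same amino acid, the mitochondrial gene had the lower log2 difference in 15, and the exceptions were Hars2 and Pars2. The median difference within a pair was -0.23, with -0.49 in Steap4AKO replicate 2 and -0.08 in replicate 3. In the 4 Steap4f/f libraries it was 0.04, 0.05, 0.08 and -0.11, so replicate 3 lay inside the control range and replicate 2 outside it. A ratio within a library does not depend on its scaling. Both Steap4AKO libraries had the mitochondrial gene below its partner, relative to Steap4f/f, in 10 of the 17 pairs. The pairs share genes (Fars2 stands against Farsa and Farsb, and Eprs serves Ears2 and Pars2), and the contrast was given no test. Among the cytosolic genes, Wars had 1233, 1227, 1205 and 1426 in Steap4f/f, against 2284 and 1368 in Steap4AKO, and its high value was in replicate 2.

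**Figure D4:**
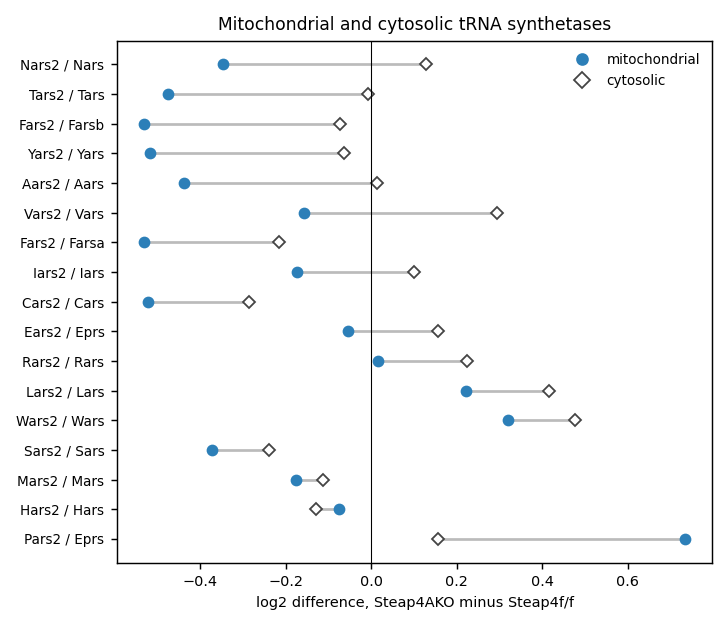
Log2 differences, Steap4AKO minus Steap4f/f, of 17 pairs of mitochondrial (filled circles) and cytosolic (open diamonds) aminoacyl-tRNA synthetases, with a line joining each pair. The mitochondrial gene lies to the left of its partner in 15 pairs, with a median difference of -0.23.

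The 3 nuclear regulators overlapped between groups, and the direction of Nrf1 and Esrra depended on the scaling. Nrf1, a factor that binds promoters of many respiratory genes, had a normalized count of 351, 329.8, 369 and 323 in Steap4f/f, against 276 and 349 in Steap4AKO, with a log2 difference of -0.14 ± 0.18 (SE, limma adjusted p = 0.704). Gabpa, the DNA-binding subunit of an ETS factor, had 881, 761, 760.2 and 786 in Steap4f/f, against 749 and 908 in Steap4AKO, with a log2 difference of 0.05 ± 0.15 (SE, limma adjusted p = 0.875). Esrra, an orphan nuclear receptor of oxidative metabolism, had 895, 1082, 1324 and 1108 in Steap4f/f, against 912 and 1119 in Steap4AKO, with a log2 difference of -0.11 ± 0.18 (SE, limma adjusted p = 0.772). For all 3 the lower Steap4AKO value was in replicate 2, and replicate 3 was near or above the Steap4f/f mean. Under the same total the differences of Nrf1 and Esrra were 0.04 and 0.07.

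Promoters of the 41 genes were searched on both strands for 4 cores: CCGGAAG (ETS factors), CGCATGCG (NRF1), CAAGGTCA (ESRRA) and AAGATGGC (YY1), none of which contains another. RefSeq promoters matched 36 of the 41 genes, with 39 promoters between them. The ETS core was in 16 of the 39 (41%), beside 8.86% of all 32851 promoters of the same length and 15.8% of those of tested genes. The YY1 core was in 6 (15.4%, beside 2.75% of all and 4.02% of those of tested genes), the NRF1 core in 4 (10.3%, beside 1.87% and 3.49%) and the ESRRA core in 2 (5.13%, beside 1.56% and 1.1%). Genes with the ETS core had a median log2 difference of -0.27 and the other matched genes one of -0.30. The medians with and without the core were -0.05 and -0.30 for NRF1 (4 genes with it), -0.44 and -0.27 for YY1 (5 genes) and -0.60 and -0.27 for ESRRA (2 genes). None of these differences was tested. A match is a description of letters, not of binding.

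Levels differed widely among the 41 genes. Per kilobase of transcript, Tufm was highest in Steap4f/f, at a normalized count of 1114 per kilobase, followed by Lars2 at 966, Iars2 at 496, Esrra at 443 and Gfm1 at 344. In Steap4AKO the first 2 changed places, with Lars2 at 1102 and Tufm at 724. The lowest in Steap4f/f were Mars2 at 16.5, Wars2 at 30.3 and Pars2 at 31.9. The rank of Mars2 rests on its transcript length of 11294 bases, the longest of the 41. Before division its Steap4f/f mean of 187 was above those of Wars2 (134) and Pars2 (97.2). The lowest value of any of the 41 genes in any library was 37.5 before division by length, for Pars2 in Steap4f/f replicate 6.

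Other genes of the pathway differed from list to list, and 1 of them passed the test. Of the 13 mRNAs encoded by mtDNA, all 13 had a negative log2 difference and 11 were without overlap, beside 14.4% of all genes. The median of the 13 was -0.90, with -1.14 in Steap4AKO replicate 2 and -0.65 in replicate 3. Under the same total 12 were negative, 9 were without overlap (7.7% of all genes) and the median was -0.72. Under quantile normalization 11 were negative, 4 were without overlap (13.5% of all genes) and the median was -0.35. The called gene was mt-Co2, a subunit of cytochrome oxidase, with 18294, 13560.3, 16512 and 12820.3 in Steap4f/f, against 4929 and 4807 in Steap4AKO (log2 difference -1.64, limma adjusted p = 0.0466). Of its 50-base runs, 99.5% also occur in the nuclear copy Gm28661 on chromosome 1, which held up to 96.0% of the sum of both, so its own value is uncertain, and the log2 difference of the sum was -0.99. The others with the smallest p were mt-Atp8 at -1.02, mt-Nd4l at -0.79 and mt-Nd3 at -1.06 (adjusted p = 0.0692, 0.0897 and 0.0969). Nuclear copies of mtDNA mRNAs other than mt-Co2 were not searched for, so their values may be uncertain in the same way.

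In the 17 genes of the glutaminyl amidotransferase and other translation steps, all 17 were negative with a median of -0.27, at -0.53 in Steap4AKO replicate 2 and -0.09 in replicate 3. Of these, 3 (17.6%) were without overlap (Qrsl1, Pdf and Eral1), near the 14.4% of all genes. Under the same total 13 were negative, 0 were without overlap and the median was -0.09, and under quantile normalization 16 were negative. In the 18 genes of tRNA and rRNA modification the median was also -0.27, at -0.45 in replicate 2 and -0.09 in replicate 3, with 13 negative. Of these genes, 4 were lower without overlap (22.2%, beside 14.4% of all genes) and 1 higher (beside 14.1%). Under the same total the median was -0.09 and 1 gene was lower without overlap, beside 7.7% of all genes. Mto1, which modifies the wobble base of mitochondrial tRNAs, was at -0.68 (adjusted p = 0.182), while Nsun3, a tRNA methylase, was at 0.88 (adjusted p = 0.218) with its high value of 592 in Steap4AKO replicate 2. In the 19 genes of RNA processing and decay the median was -0.16, with 16 negative, or 9 under the same total, where the median was 0.02. The lowest of them was Slirp, which stabilizes mitochondrial mRNAs with Lrpprc, at -0.85 (adjusted p = 0.219).

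In the 16 genes of nucleotide supply and other mtDNA upkeep 8 were negative and 8 positive, with a median of -0.07, which was 0.11 under the same total. The nuclease Endog was at -0.66 (adjusted p = 0.0943), and the succinyl-CoA ligase subunits Suclg1 and Sucla2 were at -0.81 and -0.64 (adjusted p = 0.141 and 0.175). In this list 5 genes were lower without overlap (Endog, Suclg1, Sucla2, Atad3a and Rnaseh1), beside 14.4% of all genes. Higher without overlap were 3 (Tk2, Primpol and Exog), beside 14.1%. The helicase and nuclease Dna2 was at 1.26 (adjusted p = 0.264). Among 11 coactivators and partners of the regulators, 6 were negative, with a median of -0.06 that was 0.13 under the same total. Hcfc1 had the smallest p of the 11 and was the 1 gene without overlap, higher in Steap4AKO, beside 14.1% of all genes. It had 2002, 1901, 2278 and 1953 in Steap4f/f, against 2451 and 2442 in Steap4AKO. Its log2 difference was 0.27 (limma adjusted p = 0.315). Ppargc1a, the coactivator, had 152, 476, 174 and 293 in Steap4f/f, against 87.6 and 180.5 in Steap4AKO, with a log2 difference of -0.97 (adjusted p = 0.351) and overlapping groups. The 20 cytosolic and dual synthetases had a median of -0.05, which was 0.13 under the same total. In these 7 lists together, mt-Co2 was the 1 gene that passed the test.

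**Figure D5:**
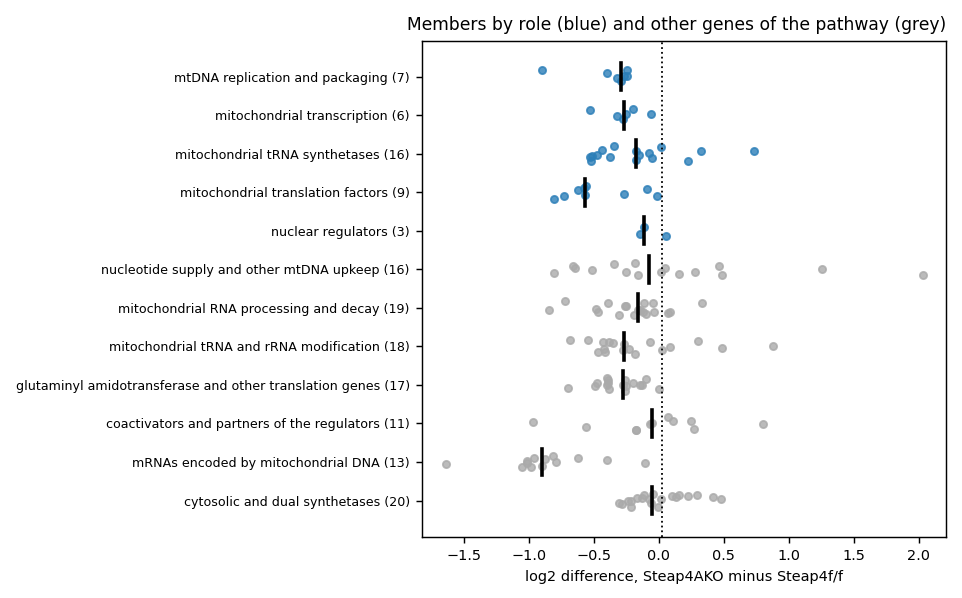
Log2 differences, Steap4AKO minus Steap4f/f, of the 41 genes by role (blue) and of 7 lists of other genes of the pathway (grey), with the number of genes in brackets; each point is 1 gene, the black bar is the median of its list and the dotted line the median of all 15006 genes, 0.02. The mRNAs encoded by mtDNA (median -0.90) and the translation factors (median -0.57) lie farthest to the left; under quantile normalization their medians were -0.35 and -0.59.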

How the data were processed

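Total RNA from iWAT was sequenced in 6 mouse samples. The deposited table gives, per the labels and its name, gene counts that the authors normalized with DESeq2, so its unit is treated as a signal. The submitters' processing notes name DESeq2 1.12.4, R 4.2.0, RSEM 1.3.3 and STAR 2.7.0e and the builds GRCm38 and mm10. The sources used here give neither the annotation nor the strand setting. Values were not whole reads at the best step of each column (33.2 to 58.0% of values under 30 within 0.1 of a whole read), so no count test was run, no counting interval is given and the exact depth is unknown. RSEM divides reads between near-identical genes, so genes with copies are uncertain.

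Symbols and positions came from GENCODE M21 on GRCm38 (15125 genes matched, 51 did not). log2(value + 1) was fitted with limma 3.58.1 in R 4.3.3, with a variance trend and 2 groups over 6 libraries, for genes with a mean of at least 10 (170 removed), with Benjamini-Hochberg adjustment over 15006 genes. Tests were two-sided. Fold changes are ratios of group means. Differences on this scale understate changes of low genes. A value per kilobase divides by the length of the transcript with the longest coding sequence. The fit was tested on simulated data.

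The 41 genes, the lists of other genes and the markers were chosen with earlier results of these data known. Values in every library are given for the 12 genes of the 41 with the smallest p, the 4 most positive and Tfam, Polrmt, Polg, Twnk, Tufm, Nrf1, Gabpa and Esrra, and other lists by up to 4 genes with the smallest p. The 5 promoters shown were chosen after the values were seen. Alternatives were other pseudocounts, filters, scalings, thresholds, limma settings, a muscle covariate and each library left out; the log2 muscle covariate was chosen after seeing the data.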

Additional observations from a re-analysis of the deposited data

Results flagged for a closer look

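In 42 groups of 4 Steap4f/f values (the 41 genes and Steap4), the highest or lowest library stood far from the other 3 in 4 groups, by a test that chance meets in about 1 of 20 groups. Steap4 was 17018 in Steap4f/f replicate 1, against 8310.0 to 9417 in the others. Mterf4 was 838 in the same library, against 419 to 448. Tsfm was 319 in Steap4f/f replicate 6, against 453 to 473. Rars2 was 529 in that library, against 272 to 294.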

How the results depend on the processing

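The count of genes past the threshold, 71, rested on the settings: it was 1 with a pseudocount of 0.5, a mean of at least 100, a robust variance prior or either muscle covariate, 13 with no variance trend, 112 with a pseudocount of 8, 119 with array weights and 410 at an adjusted p under 0.1, and ranged from 1 to 821 with 1 library left out. Of the 41 genes, 0 passed in every setting with all 6 libraries at 0.05, 2 (Gfm2 and Tufm) passed at 0.1, and 0 to 4 passed with 1 library left out, the 4 without Steap4AKO replicate 3 (Gfm2, Mgme1, Fars2 and Tufm), when the lone sample is assumed to vary like the others. The count lower without overlap was 7 under the same total (17.1%, beside 7.7% of all genes) and 16 to 30 with 1 library left out. It was 17 without Steap4AKO replicate 2 (41.5%, beside 23.9% of all genes) and 30 without replicate 3 (73.2%, beside 28.6%). The median of -0.27 was -0.088 under the same total, -0.35 with the muscle level and -0.072 with its log2 as covariate, and -0.44 to -0.17 with 1 library left out. The muscle level and its log2 correlate with genotype at -0.71 and -0.92, so muscle and genotype can hardly be told apart. Of 418 values of the 22 genes given in every library, 396 kept direction and call, 6 passed the threshold and 16 changed sign. The sign changed under the same total for Nrf1 (0.040) and Esrra (0.071), with the muscle level for Pars2 (-0.46), Gabpa (-0.035) and Esrra (0.032), and with its log2 for Fars2 (0.059), Pars2 (-1.11), Tfam (0.76), Polrmt (0.24), Nrf1 (0.077) and Esrra (0.53). It also changed without Steap4AKO replicate 2 for Tfam (-0.84 to 0.30 over libraries left out), Nrf1 (-0.31 to 0.023) and Esrra (-0.26 to 0.035), and without replicate 3 for Wars2 (-0.38 to 1.02) and Gabpa (-0.087 to 0.19). The cause was not tested. No paired analysis was possible because the genotypes share only replicate number 2. edgeR and DESeq2 tests were not run, since whole reads were not recovered.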
